A study of Rattus norvegicus with 6 samples.

Results

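The microRNAs miR-193a and miR-365 are made from neighbouring hairpins, and each hairpin gives a 5p and a 3p mature arm. The 4 arms, rno-miR-193a-5p, rno-miR-193a-3p, rno-miR-365-3p and rno-miR-365-5p, were taken by name from a table of 763 mature miRNAs. They were chosen by name after the lower level of rno-miR-193a-5p after preconditioning was already known from this comparison, so their levels in the 2 groups are described here and not tested. All 4 had reads, but only 1 of the 4, rno-miR-193a-5p, reached the abundance needed for the fit over 226 miRNAs.

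The miRNAs were measured by small RNA sequencing in exosomes, small vesicles that cells release, isolated from serum. The donors were male Sprague-Dawley rats of 9 to 10 weeks and 250 to 280 g, all under pentobarbital. The IPC group (3 samples) had ischemic preconditioning, given as 3 cycles of tying the left anterior descending coronary artery for 5 min and reopening it for 5 min. The control group (3 samples) had blood drawn from the left ventricle in the same way without these cycles, and no sham operation is described for it. Whether each sample is a separate rat is not stated, so the errors given are between these samples and may be technical. Values of single libraries are listed in the order of replicates 1, 2 and 3.

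A miRNA hairpin is cut by Drosha and Dicer, and usually one of its arms is loaded on Argonaute and guides it to messenger RNAs that match its seed, bases 2 to 8. In human tumour cells miR-193a-3p is known to repress MCL1, a survival protein, and KIT, a growth factor receptor. In mice the locus of the close relative miR-193b with a copy of miR-365 is known for its expression in brown fat. Serum exosomes come from many tissues, and fewer vesicles carrying a miRNA cannot be told apart from less of it per vesicle.

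The mature sequences of the 4 arms are shown first, because the seed decides which of them could share targets. They are the RefSeq entries of the rat assembly GRCr8, while the submitters' processing notes name rn6. All are written 5′ to 3′ with the seed in capitals, followed by the arms of miR-193b, the closest relative in the table.
rno-miR-193a-5p: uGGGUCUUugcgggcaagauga
rno-miR-193a-3p: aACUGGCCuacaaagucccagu
rno-miR-365-3p: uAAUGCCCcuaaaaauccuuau
rno-miR-365-5p: gAGGGACUuucaggggc
rno-miR-193b-5p: gGGGUUUUgagggcgaga
rno-miR-193b-3p: aACUGGCCcacaaaguccc

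The 4 arms carry 4 different seeds. Of these, only that of rno-miR-193a-3p was found in another row of the table that has a sequence, rno-miR-193b-3p. Over the 19 bases they share in length, these 2 differ by 1 substitution, U9C, counted from 1 at the 5′ end with the base of rno-miR-193a-3p first. Their reads are therefore uncertain in part, since the authors' handling of reads that fit both is not given in the sources used here. The 5p arms of miR-193a and miR-193b differ within the seed, so they do not share it.

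Both hairpins lie on the plus strand of chromosome 10 in GRCr8. The Mir193 hairpin, which gives miR-193a, spans 65170317 to 65170402, and Mir365b, which gives miR-365, spans 65184217 to 65184302. They are 13814 bases apart, with 0 annotated genes lying wholly between them in the RefSeq gene table. The Mir193b hairpin lies elsewhere on the same chromosome. A single locus was looked up for each mature miRNA, so whether another copy of miR-365 adds to its reads was not checked. The 2 hairpins are printed with the mature arms in capitals, the 5p arm first, because the balance between the arms of each is compared further on.
Mir193: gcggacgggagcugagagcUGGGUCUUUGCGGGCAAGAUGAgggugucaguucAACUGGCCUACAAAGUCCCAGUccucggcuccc
Mir365b: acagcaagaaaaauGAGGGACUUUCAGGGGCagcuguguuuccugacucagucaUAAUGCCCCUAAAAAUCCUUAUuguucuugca

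On the opposite strand RefSeq places another miRNA gene, which gives rno-miR-3549. All 19 bases of that mature miRNA lie opposite rno-miR-193a-5p. It had 0 counts in all 6 libraries, so no read was given to the antisense miRNA. The limit set for 0 counts here is the usual floor of 3 counts, which is lower than the upper end of the exact interval for 0, and it ran from 3.93 to 9.40 CPM (counts scaled to a fixed library total) in the IPC libraries and from 19.7 to 27.0 CPM in the control libraries.

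Library depth differed between the groups and bears on every value that follows. The depositors' values could be turned back into read counts, whose totals were 762927, 661405 and 319285 in IPC libraries and 111048, 152343 and 129728 in control libraries. Each IPC library was thus deeper than each control library, and depth and group cannot be told apart. Control replicate 2 also stood apart. With all libraries, limma called 0 of 226 miRNAs (adjusted p below 0.05) in each direction, and without that control library it called 29 higher and 9 lower. Intervals given for counts are exact 95% intervals that hold for counting error alone, because reads without molecular identifiers can be PCR copies.

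rno-miR-193a-5p was the most abundant of the 4 arms and the one whose groups did not overlap. It had 88, 44 and 25 counts in IPC libraries, and 49, 36 and 41 counts in control libraries. The unscaled counts of the groups overlapped, so the difference between them rests on the scaling to depth. The authors' normalised values, which put all libraries at a common size, were 33.0, 18.3 and 18.5 in IPC libraries. They were 149, 44.7 and 93.8 in control libraries. All IPC libraries lay below all control libraries, and control replicate 2 was the control nearest to them.

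The mean normalised value of rno-miR-193a-5p was 23.2 ± 8.44 in IPC libraries and 95.7 ± 52.1 in control libraries (SD, n = 3 each). The fitted log2 fold change, on log2(value + 1), was -1.89 (SE 0.73), and it was -2.35 without control replicate 2. The authors' deposited table gives -2.02. This difference is given with no p, since the arm was chosen on it.

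**Figure D1:**
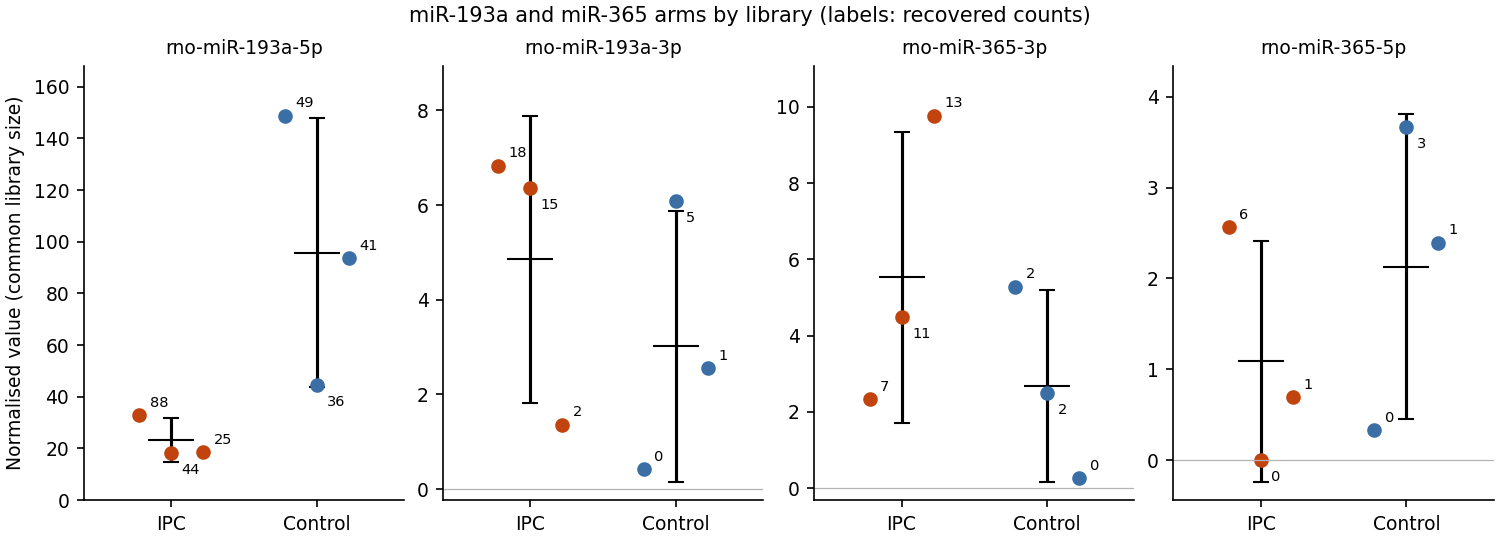
Normalised value of each arm by library (vertical axis, linear, one panel per arm), IPC left of control, with the recovered count beside each point and the mean ± SD in black (n = 3 each). For rno-miR-193a-5p the IPC points lie between 18.3 and 33.0 and the control points between 44.7 and 149, while the groups of the other 3 arms overlap.

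Scaled only to each library's total, rno-miR-193a-5p stood at 115 CPM (interval 92.5 to 142) in IPC replicate 1. It stood at 66.5 (48.3 to 89.3) in IPC replicate 2 and 78.3 (50.7 to 116) in IPC replicate 3. In the controls it stood at 441 (326 to 583) in replicate 1, 236 (166 to 327) in replicate 2 and 316 (227 to 429) in replicate 3. The counting interval of each IPC library ended below that of each control library. These intervals leave out the differences between libraries, and the arm was chosen on this comparison, so their separation adds no support. The means were 86.7 ± 25.5 CPM in IPC libraries and 331 ± 103 CPM in control libraries (SD, n = 3 each).

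Among the 226 tested miRNAs rno-miR-193a-5p ranked 136 by mean CPM and 4 from the lowest by log2 fold change. The second rank was 1 without IPC replicate 3 or control replicate 3, 9 without IPC replicate 1 or control replicate 2, and 10 without control replicate 1. limma called 0% (adjusted p below 0.05, in each direction), and at an unadjusted p below 0.05 it put 8.85% higher (20 miRNAs) and 1.77% lower (4 miRNAs). Run on the read counts, limma-voom called 0 after adjustment too, and put 19 higher and 4 lower before it. Scaling by median-of-ratios size factors changed the unadjusted split to 12 higher and 7 lower, and quantile normalisation changed it to 13 and 8. All IPC libraries lay below all controls for 1.33% of the tested miRNAs, which are miR-3473, miR-501-3p and rno-miR-193a-5p. Since the comparison chose the arm, these shares say nothing further about it.

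The median log2 fold change of all tested miRNAs was 0.38, so relative to it rno-miR-193a-5p was at -2.27. Median-of-ratios scaling shifted that median by -0.19 and quantile normalisation by -0.38, and relative to the shifted medians the arm was at -2.32 and -2.28.

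**Figure D2:**
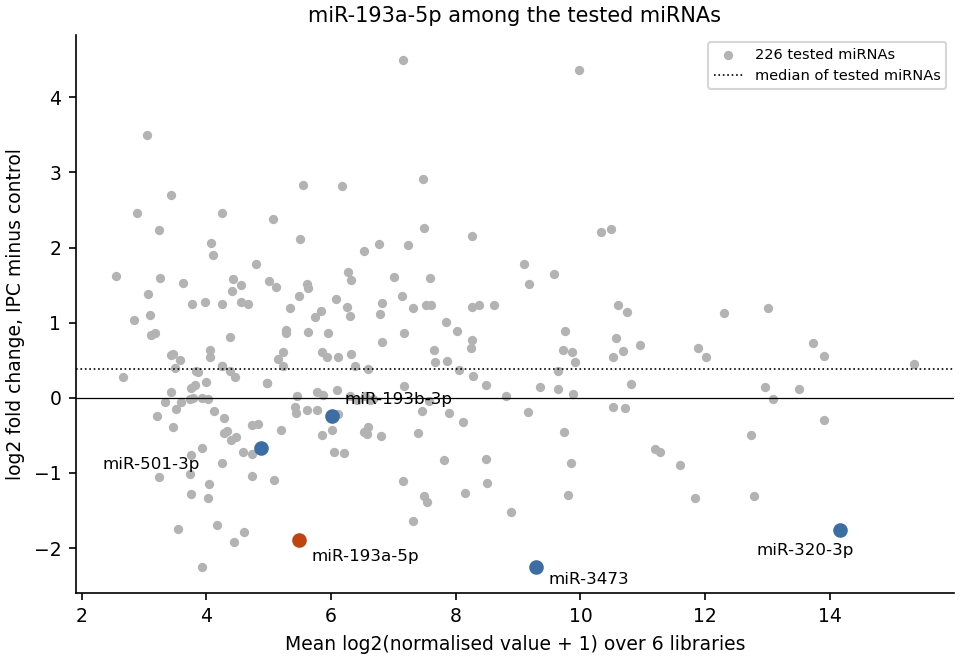
Log2 fold change, IPC minus control (vertical axis), against the mean log2(normalised value + 1) over 6 libraries (horizontal axis) for the 226 tested miRNAs, with 5 of them named. rno-miR-193a-5p sits at -1.89, below the dotted median of 0.38, and rno-miR-193b-3p sits at -0.25.

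rno-miR-193a-3p, the arm that shares its seed with miR-193b-3p, was far less abundant. It had 18, 15 and 2 counts in IPC libraries, and 0, 5 and 1 counts in control libraries. Its normalised values were 6.83, 6.36 and 1.36 in the IPC libraries in that order, and 0.414, 6.09 and 2.55 in the control libraries. The groups overlapped, and the value of 0.414 in control replicate 1 stands for 0 counts, which the authors' scaling moved above 0. The difference between the group means of log2(value + 1) was 0.65, less than the spread of single libraries within the groups (SD 1.07). Summed over libraries, it had 35 counts in IPC and 6 in control, a scaled ratio of 1.43 with a counting interval of 0.595 to 4.16. Counting error alone leaves a change within that interval undetectable, and the differences between libraries come on top of it.

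rno-miR-365-3p, which took 35 of the 46 miR-365 counts over all libraries, had 7, 11 and 13 counts in IPC libraries, and 2, 2 and 0 counts in control libraries. The normalised values were 2.34, 4.49 and 9.77 in IPC libraries. They were 5.28, 2.50 and 0.260 in control libraries, so IPC replicate 1 lay below 2 of the 3 controls. The log2 difference was 0.94, within the spread between libraries (SD 1.02). The sums of 31 counts in IPC and 4 in control gave a scaled ratio of 1.90 with a counting interval of 0.672 to 7.41.

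rno-miR-365-5p, the other arm of that hairpin, was the rarest, with 11 counts in all. It had 6, 0 and 1 counts in IPC libraries, and 0, 3 and 1 counts in control libraries. The normalised values were 2.56, 0 and 0.695 in the IPC libraries and 0.331, 3.66 and 2.39 in the control libraries, in the same order, and the groups overlapped. IPC replicate 2 and control replicate 1 both had 0 counts, but the authors' scaling put them at 0 and 0.331. The log2 difference was -0.60, within the spread between libraries (SD 0.93). The scaled ratio was 0.429 with a counting interval of 0.109 to 2.00.

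These 3 arms stayed below the abundance filter, which asks for a scaled count of at least 9.27 in 3 libraries. The scaled count that 3 libraries reached was 6.19 for rno-miR-193a-3p, 4.61 for rno-miR-365-3p and 2.24 for rno-miR-365-5p, while it was 44.6 for rno-miR-193a-5p. The authors' deposited table gives them log2 fold changes of 0.57, 1.03 and -1.09 in that order.

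The 2 arms of a hairpin are read in the same library, so the share of counts on each arm does not depend on how libraries are scaled. The 5p arm held 83.0% of the miR-193a counts in IPC replicate 1, 74.6% in replicate 2 and 92.6% in replicate 3. It held 100%, 87.8% and 97.6% in control libraries. The 5p arm was therefore the main one in every library, and the groups overlapped, since IPC replicate 3 lay above control replicate 2. Over all libraries of a group the 5p arm held 157 of 192 counts in IPC, or 81.8% (interval 75.6 to 87.0), and 126 of 132 in control, or 95.5% (90.4 to 98.3). These pooled intervals leave out the differences between libraries, so their separation does not set the groups apart. The control share rests on 6 counts of the 3p arm, 5 of them in control replicate 2. Both shares also hold the 5p level on which the arm was chosen.

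As a log2 ratio of normalised values plus 1, which does depend on the scaling and the added 1, the 5p to 3p balance of miR-193a was 2.18 ± 0.83 in IPC libraries and 4.72 ± 2.02 in control libraries (SD, n = 3 each). The difference of -2.54 was -1.53 without control replicate 1, which had 0 counts of the 3p arm, and -3.55 without control replicate 2. It rests on 6 counts of the 3p arm in all controls, and it holds the 5p level on which the arm was chosen, so it is no separate result.

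miR-193b showed the opposite arm balance. Its 5p arm held 9.73%, 2.29% and 2.22% of its counts in IPC libraries, and 20%, 8.16% and 15.6% in control libraries. In each of the 6 libraries miR-193a was thus read mainly from its 5p arm and miR-193b mainly from its 3p arm. For miR-365 the 5p arm held 7 of 38 counts in IPC libraries, or 18.4% (interval 7.74 to 34.3), and 4 of 8 in control libraries, or 50% (15.7 to 84.3). At that depth no main arm of miR-365 could be told in the controls.

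**Figure D3:**
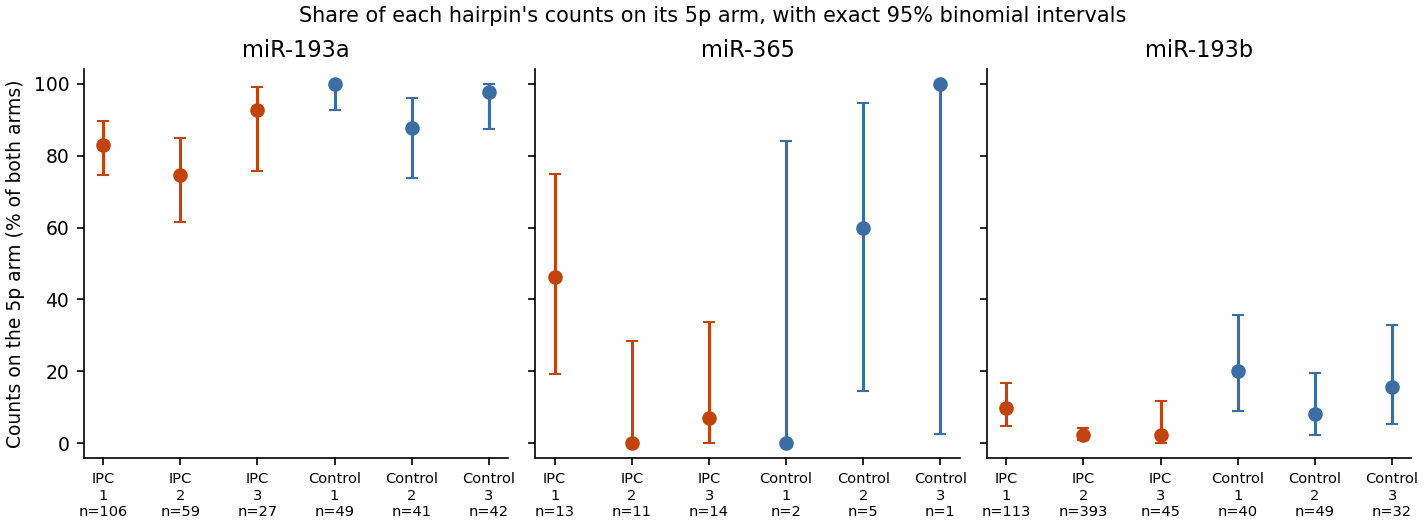
Share of a hairpin's counts on its 5p arm (vertical axis, percent) in each library, for miR-193a, miR-365 and miR-193b, with exact 95% binomial intervals and the counts of both arms under each library. The miR-193a points lie between 74.6% and 100%, the miR-193b points between 2.22% and 20%, and the miR-365 intervals span most of the axis in the controls.

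The arms of miR-193b are the nearest relatives in the table. rno-miR-193b-5p had normalised values of 4.21, 3.83 and 0.635 in IPC libraries, and 23.2, 5.07 and 11.6 in control libraries. As with the 5p arm of miR-193a, all IPC libraries lay below all controls, but it rested on 21 counts in IPC libraries and 17 in control libraries and was below the filter. Control replicate 2 had 4 counts (interval 7.15 to 67.2 CPM) and IPC replicate 1 had 11 (7.20 to 25.8 CPM), so these 2 overlapped within counting error. The 1.33% of tested miRNAs given above does not cover rno-miR-193b-5p. The share among miRNAs below the filter was not worked out, so how common such a separation is at these counts is not known. The scaled ratio of rno-miR-193b-5p was 0.303 (counting interval 0.152 to 0.611), beside 0.305 (0.240 to 0.389) for rno-miR-193a-5p. rno-miR-193b-3p had 37.7, 162 and 32.5 in IPC libraries, and 97.3, 55.8 and 61.9 in control libraries. IPC replicate 2 was the highest of all 6 libraries and the other IPC libraries the lowest, and the log2 fold change was -0.25 (SE 0.75). The means and the scaled ratio had the other sign, with means of 77.3 ± 73.1 in IPC libraries and 71.6 ± 22.4 in control libraries (SD, n = 3 each) and a scaled ratio of 1.25 (counting interval 1.01 to 1.56). The authors' deposited table gives a log2 fold change of 0.12.

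The miRNAs whose pattern over the 6 libraries was most like that of rno-miR-193a-5p were found by Pearson's r of log2(value + 1). The points share the libraries and their scaling, and no p is given. The pattern includes the difference between the groups on which rno-miR-193a-5p was chosen, so r is not separate from that difference. The 5 nearest were miR-501-3p (r = 0.97), miR-320-3p (0.92), miR-370-3p (0.90), miR-106b-3p (0.89) and miR-204-3p (0.89). miR-501 is encoded in an intron of the chloride channel gene Clcn5, miR-320 is made without Drosha, miR-370 lies in the imprinted Dlk1-Dio3 region, and miR-106b lies in an intron of the helicase gene Mcm7. rno-miR-193b-3p ranked 80 of 225, with r = 0.16.

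miR-501-3p had normalised values of 26.1, 22.2 and 19.2 in IPC libraries, and 39.7, 28.5 and 41.1 in control libraries, a narrower range than that of rno-miR-193a-5p. miR-320-3p had 15995, 9825 and 6329 in the IPC libraries and 51705, 11398 and 65153 in the control libraries. In miR-320-3p, miR-370-3p, miR-106b-3p and miR-204-3p control replicate 2 lay within the IPC range, whereas for rno-miR-193a-5p and miR-501-3p it stayed above it. An r above 0.9 was found for 3 of the 225 other miRNAs and one below -0.9 for 9.

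**Figure D4:**
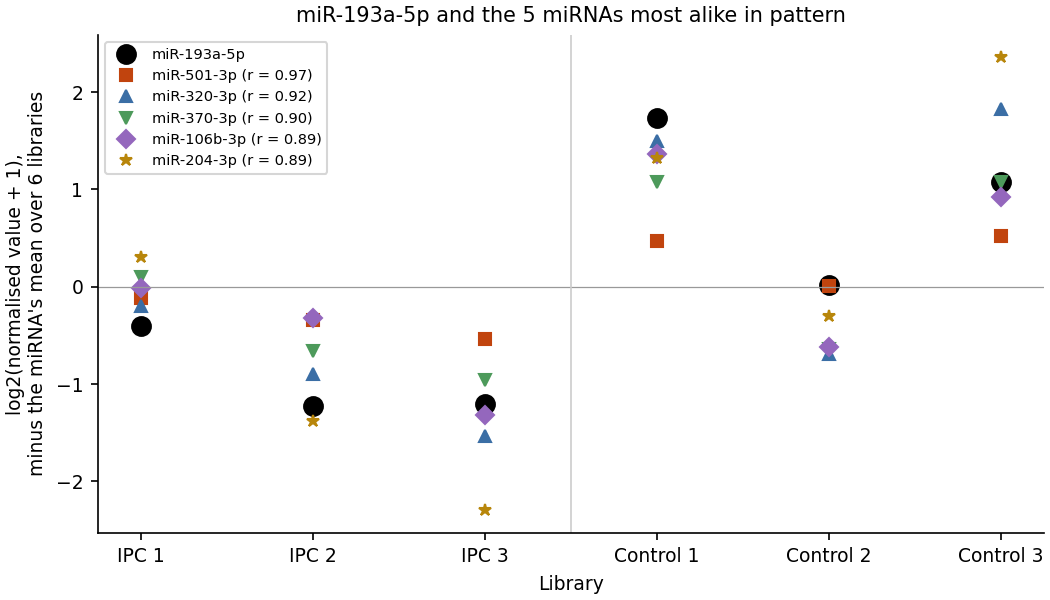
Log2(normalised value + 1) minus the miRNA's own mean over 6 libraries (vertical axis) in each library (horizontal axis), for rno-miR-193a-5p in black and the 5 miRNAs most like it in pattern. Control replicates 1 and 3 are high for all 6 miRNAs, and control replicate 2 lies near or below the mean.

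The share of G and C bases also ran with the difference between the groups. It was 31.8% in rno-miR-365-3p, 50% in rno-miR-193a-3p, 54.5% in rno-miR-193a-5p and 64.7% in rno-miR-365-5p, and the log2 differences in that order were 0.94, 0.65, -1.89 and -0.60. Over the 206 of 226 tested miRNAs with a RefSeq sequence, Pearson's r between this share and the log2 fold change was -0.54 and Spearman's rho -0.55, as a description across miRNAs that share their libraries. The 61 miRNAs with a share at least that of rno-miR-193a-5p had a median log2 fold change of -0.39, and the other 145 one of 0.70. Of the 10 miRNAs most like rno-miR-193a-5p, 7 have a sequence. Their shares ran from 54.2% to 68.2% with a median of 63.6%, against a median of 47.6% over all 206. Those 10 were picked on a pattern that includes the difference between the groups, so their shares are no separate result. The part of base composition in the lower level of rno-miR-193a-5p was not tested.

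**Figure D5:**
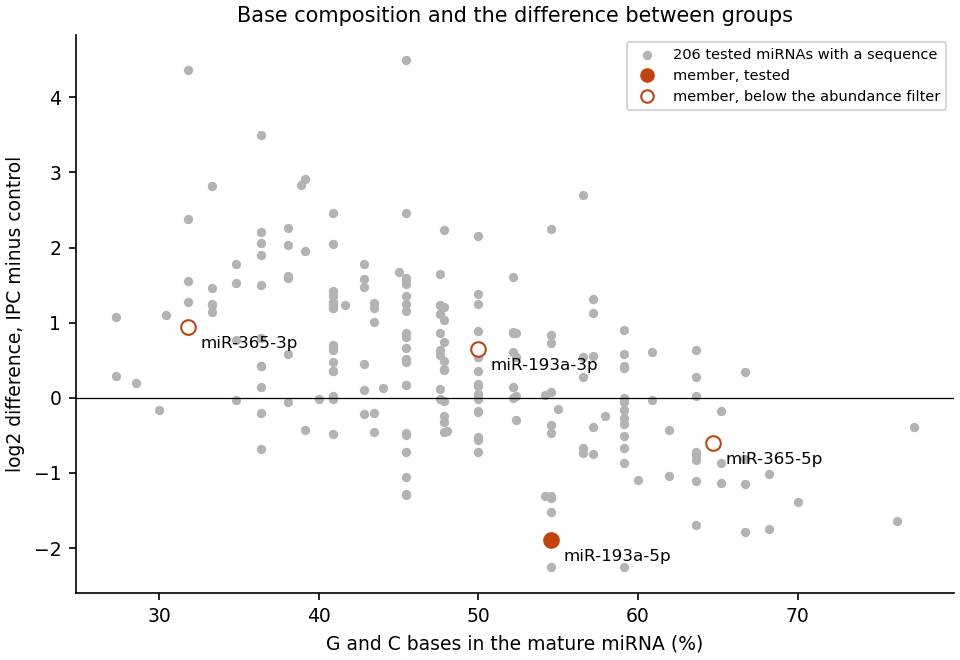
Log2 difference, IPC minus control (vertical axis), against the percent of G and C bases in the mature miRNA (horizontal axis) for 206 tested miRNAs in grey and the 4 arms in red, open where the arm was below the abundance filter. The grey points slope downwards (r = -0.54), with rno-miR-193a-5p at 54.5% and -1.89 near their lower edge.

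Lists of miRNAs reported to favour or oppose brown adipocytes were read beside the members, since the miR-193b and miR-365 locus is known from brown fat. Of the 12 miRNAs of the favouring list 11 were tested, and 7 had positive and 4 negative log2 fold changes, with a median of 0.84. Over all 226 tested miRNAs 142 were positive and 84 negative, with a median of 0.38. At an unadjusted p below 0.05 in limma, 1 of the 11 was higher and 0 were lower, near the 8.85% and 1.77% over all tested miRNAs, and 0 passed after adjustment. That 1 was miR-30b-5p, with 43.3, 99.7 and 190 in IPC libraries and 33.5, 46.9 and 5.29 in control libraries, so its groups overlapped. The 2 most abundant were miR-378a-3p, from an intron of Ppargc1b, at -0.30 (SE 0.63) and miR-26a-5p at 0.35 (SE 0.72) on the log2 scale. Of the 7 miRNAs of the opposing list 5 were tested, all with positive log2 fold changes, beside 142 of all 226, and a median of 1.47. At an unadjusted p below 0.05, 1 of the 5 was higher, beside 8.85% over all tested miRNAs, and 0 passed after adjustment. That 1 was miR-133a-3p, which is also a muscle miRNA. In the opposing list the most abundant 2 were miR-27a-3p at 0.54 (SE 0.62) and miR-133a-3p at 2.25 (SE 0.69).

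Markers of cells that can feed serum exosomes were read in the same libraries. Striated muscle miRNAs took 1.42% to 8.44% of counts in IPC libraries and 0.216% to 1.83% in control libraries, and red-cell miRNAs took 4.92% to 5.78% and 4.09% to 7.77%. Liver miRNAs took 0.703% to 1.47% in IPC libraries and 1.04% to 2.29% in controls, leukocyte miRNAs 1.07% to 2.04% and 0.447% to 1.04%, and platelet miRNAs 9.46% to 12.5% and 4.30% to 11.0%. None of the 21 list entries was at 0 in all libraries. All 6 striated muscle markers and miR-223-3p, listed for both leukocytes and platelets, were higher in IPC at an unadjusted p below 0.05 in limma, beside 8.85% over all tested miRNAs, and 0 passed after adjustment. Of these, miR-1-3p and miR-499-5p overlapped between the groups, with control replicate 2 above IPC replicate 1. The part of these markers in the level of rno-miR-193a-5p was not tested.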

How the data were processed

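Exosomal RNA (1 µg per sample) was made into small RNA libraries and sequenced as 50 bp single reads, per the labels' protocols. FastQC, BWA, edgeR and rn6 are listed without versions in the submitters' processing notes. Per the file headers, each row holds a miRNA's value in 6 libraries, the authors' log2 fold change and the authors' p-value. The deposited library values are a normalised signal. Their form, read from the values, is that of counts shifted by quantiles to one library size. Inverting it within each group gave whole counts (within 0.01) for 4578 of 4578 values, at a fitted dispersion of 0.503, and scaled counts are these counts over the fitted size ratios. limma 3.58.1 (R 4.3.3; trended, robust) was run on log2(value + 1), IPC against control with no other term, and p was adjusted by Benjamini-Hochberg over 226 miRNAs, each with 10 counts at the median size in 3 libraries and 15 in all. Libraries of 1 group differed beyond sampling noise (chi-square per degree of freedom 150 to 445). RefSeq sequences matched 686 of 763 names. The steps were tested on simulated data. The members and all lists were chosen with earlier results of these data known. Named miRNAs were the members, the 5 most like each tested member, miRNAs sharing a seed, the arms of miR-193b and the 2 most abundant of each brown-fat list. Outside that rule, miR-3549, miR-3473 and list members at an unadjusted p below 0.05 were picked with their values in view.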

Additional observations from a re-analysis of the deposited data

How the results depend on the processing

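The log2 fold change of rno-miR-193a-5p kept its direction under all alternatives run. It ran from -2.35 (limma-voom with quality weights) to -1.73 (pseudocount 5) with all libraries, and from -2.35 to -1.49 with 1 library left out. The 3 rarer arms also kept their signs, with ranges on leaving out 1 library of 0.037 to 1.21 (rno-miR-193a-3p), 0.31 to 1.47 (rno-miR-365-3p) and -1.13 to -0.17 (rno-miR-365-5p). rno-miR-365-5p moved to -1.72 in limma-voom and -1.79 with quality weights, and the cause was not tested. The 5p to 3p balance of miR-193a ran from -3.55 to -1.53 with 1 library left out.

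The number of miRNAs called at an adjusted p below 0.05 was 0 higher and 0 lower. It was 3 higher with no filter and 2 higher in limma-voom with quality weights, and with 1 library left out it ran from 0 to 29 higher and from 0 to 9 lower. At an unadjusted p below 0.05 the 20 higher and 4 lower became 41 and 11 with no filter, 40 and 16 with quality weights, 10 higher with the stricter filter, and 7 to 55 higher and 0 to 24 lower with 1 library left out. Of the 10 miRNAs most like rno-miR-193a-5p, 8 were kept by Spearman's rho and 9 with scaling to totals. Whether the shared replicate numbers pair the samples is not stated. Same-numbered libraries deviated from their group means with r of 0.13, -0.18 and -0.51. They did not consistently deviate together, and those numbered 3 tended to deviate in opposite directions. With the number as a replicate block 2 miRNAs were called higher and 0 lower, and the log2 fold change of rno-miR-193a-5p was -1.89 (SE 1.01). Depth limits the 3 rarer arms, which had 11 to 41 counts over all libraries.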
